A study of Homo sapiens with 4 samples.

Results

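The plasminogen activator system was examined in MV3 cells through 5 genes chosen by name: PLAU, PLAT, PLAUR, SERPINE2 and SERPINB2. All 5 were matched by symbol to a row of the deposited count table, 5 of 56304 gene rows, and all 5 passed the filter on low counts that left 15529 genes for testing. MV3 is an established human melanoma line, here carrying a nuclear H2B-GFP reporter in every sample. Spheroids of 50000 cells were embedded in collagen I without any treatment, and dissected on day 2 with punches of 1 mm for the core and 3 mm for the invasion zone around it, with 2 libraries per zone. Spheroids of this size were larger than those the study imaged, and by the study's own account the core punch may hold some invading cells. Bulk RNAseq cannot tell apart fewer cells with a transcript and less transcript per cell.

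Plasminogen activators are serine proteases that cleave plasminogen to plasmin, a broad protease that degrades fibrin and matrix glycoproteins and activates some latent growth factors and metalloproteinases. Urokinase, encoded by PLAU, is held at the cell surface by its lipid-anchored receptor uPAR, encoded by PLAUR, whereas tissue-type plasminogen activator, encoded by PLAT, works best when bound to fibrin. Serpins trap these proteases irreversibly: protease nexin-1, encoded by SERPINE2, blocks urokinase, tissue-type activator, plasmin and thrombin, and SERPINB2 encodes plasminogen activator inhibitor 2, which is largely kept inside the cell. In melanoma, urokinase and its receptor are known for their link to invasion, and melanoma lines are a classic source of tissue-type activator.

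The libraries held 36363358 and 14983135 counts in the core (replicates 1 and 2) and 37591782 and 11789243 counts in the invasion zone, so the replicate 2 libraries were shallower in both zones. Mitochondrial genes took between 1.06% and 1.72% of the counts. Of the 6 melanocyte lineage markers, SOX10 and TYR had 0 counts in every library and the list summed to 2.64 to 5.30 CPM (counts scaled to library size, with TMM factors that correct for composition), so the melanoma label was not carried by these markers. The dedifferentiated melanoma list summed to 1158 to 1222 CPM in the core and 1664 to 1767 CPM in the invasion zone, mostly through AXL (633 and 629 CPM against 1224 and 1121 CPM). WNT5A of that list went the other way, with 180 and 81.3 CPM in the core and 54.1 and 17.9 CPM in the invasion zone, SOX9 overlapped between the zones, and NGFR stayed at or under 0.0663 CPM. Of the fibroblast list, DCN and LUM were at 0 in every library, and its sum, nearly all COL1A1, was 792 to 1103 CPM in the core and 218 to 441 CPM in the invasion zone. The leukocyte list, with CD3E at 0, summed to 1.92 to 2.04 CPM in the core and 0.421 to 0.747 CPM in the invasion zone. The endothelial list, mostly PECAM1 and with KDR at 0, summed to 7.63 to 18.4 CPM and 0.926 to 5.76 CPM. The sums of the fibroblast, leukocyte and endothelial lists were thus all lower in the invasion zone, but they rested on few genes. Only 3 fibroblast, 1 leukocyte and 1 endothelial gene passed the filter. CD14 made up most of the leukocyte sum in the core, with 49 and 16 counts, against 11 and 4 in the invasion zone. VWF (8 and 0 counts against 16 and 0) and CD68 (1 and 1 against 3 and 0) were near 0 and overlapped between the zones. The study describes cultures of MV3 cells only, so the list names stand for marker genes and not for added cell types. The part of these lists in the results was not tested. Keratin 18 (KRT18) carried the epithelial list, which summed to 118 to 158 CPM, while CDH1 and EPCAM stayed at or under 0.0663 CPM.

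PLAU had almost the same level in both zones, PLAT was slightly lower and PLAUR slightly higher in the invasion zone. SERPINE2 was 2.50-fold lower and SERPINB2 2.07-fold higher in the invasion zone, and these were the only members whose difference reached 2-fold. The edgeR quasi-likelihood test without a replicate term called 0 of the 5 members at an adjusted p under 0.05 and a 2-fold change, and it called 0 of all 15529 genes (0% higher and 0% lower). Before adjustment, at p under 0.05 and 2-fold, SERPINB2 was among the 454 higher genes (2.92% of those tested) and SERPINE2 among the 909 lower genes (5.85%). DESeq2, the tool used by the study, called SERPINB2 higher and SERPINE2 lower after adjustment, against a background of 2.89% of genes higher and 4.37% lower. This run called more genes in each direction than the study reported, and the study's text names neither SERPINB2 nor SERPINE2. With the replicate number as a block, the edgeR test called the same pair, against 3.41% of genes higher and 7.06% lower. The pair of invasion zone values was above the pair of core values for 1 member, SERPINB2, against 28.1% of all genes tested. It was below them for 2 members, SERPINE2 and PLAT, against 30.3% of all genes. The labels do not say that libraries were made from separate cultures, so p-values cover the spread between these libraries.

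**Figure D1:**
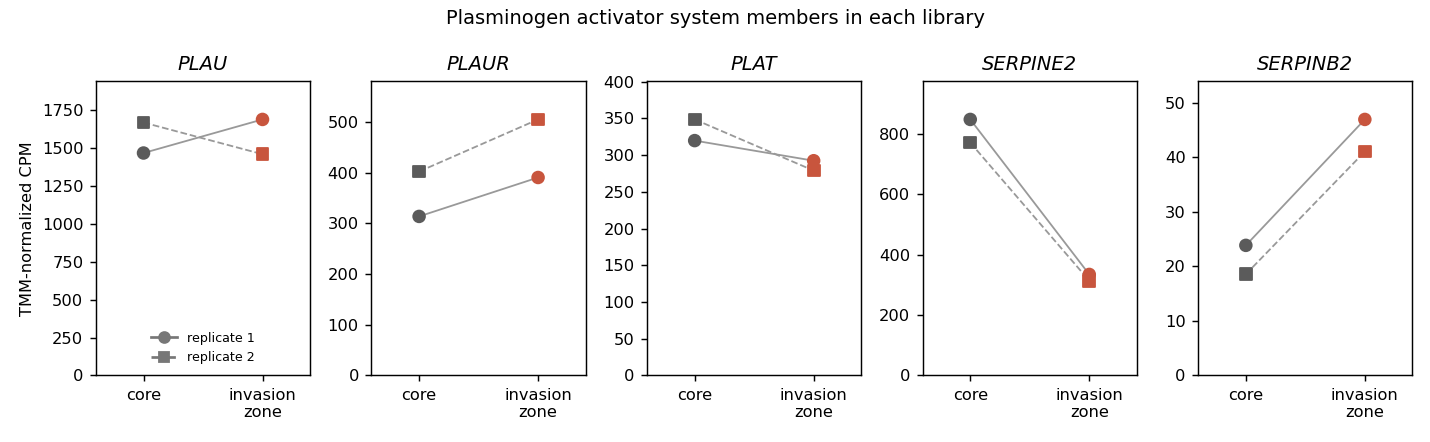
TMM-normalized CPM (vertical axes, each from 0) of the 5 members in the core and the invasion zone, where circles with solid lines are replicate 1 and squares with dashed lines are replicate 2. The PLAU lines cross between 1459 and 1689 CPM, the SERPINE2 points lie at 314 and 335 CPM in the invasion zone against 772 and 848 CPM in the core, and both SERPINB2 points of the invasion zone lie above those of the core.

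PLAU (ENSG00000122861) lies on chromosome 10 of GRCh38 from 73909177 to 73917496 on the forward strand. It had 1467 and 1669 CPM in the core and 1689 and 1459 CPM in the invasion zone, from 52512, 25155, 63286 and 17341 counts. The highest value was in the invasion zone of replicate 1 and the lowest in the invasion zone of replicate 2, so that the core values lay between them. Within replicate 1 the invasion zone was higher by 0.20 on the log2 scale (exact 95% interval 0.19 to 0.22, counting error only), and within replicate 2 it fell short of the core, at -0.19 (-0.22 to -0.17). The replicates thus went in opposite directions, by more than counting error. Over the 4 libraries the log2 fold change was 0.01 (standard error 0.17, 95% interval -0.41 to 0.42; edgeR adjusted p = 0.988), an interval that leaves out a change of 1.34-fold or more in either direction under this model. PLAU shares 915 of its 2949 exonic bases with C10orf55 on the opposite strand, and the strand setting of the counting is not given in the sources used here. C10orf55 had between 77 and 350 counts per library.

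PLAT (ENSG00000104368, chromosome 8, 42174718 to 42207709, reverse strand) had 320 and 348 CPM in the core. In the invasion zone it had 292 and 279 CPM. Both invasion zone values lay under both core values, and the log2 difference was -0.13 (exact 95% interval -0.17 to -0.09) within replicate 1 and -0.32 (-0.39 to -0.26) within replicate 2. The log2 fold change of -0.23 (standard error 0.14) did not pass the test (edgeR adjusted p = 0.365). Its 95% interval, -0.57 to 0.12, leaves out a 2-fold change in either direction. With the replicate block the adjusted p was 0.0507.

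PLAUR (ENSG00000011422, chromosome 19, 43646095 to 43670547, reverse strand) had 314 and 402 CPM in the core and 390 and 505 CPM in the invasion zone. The zones overlapped, because the core of replicate 2 was above the invasion zone of replicate 1. Within a replicate the invasion zone was higher each time, by 0.32 (exact 95% interval 0.28 to 0.35) and 0.33 (0.28 to 0.38) on the log2 scale. Replicate 2 was above replicate 1 by 0.36 in the core and by 0.37 in the invasion zone, which is more than the difference between the zones. The log2 fold change was 0.32 (standard error 0.21, 95% interval -0.19 to 0.84; edgeR adjusted p = 0.386) without a replicate term. With the replicate block it was 0.32 (standard error 0.07, adjusted p = 0.00685), in a fit where 19.4% of all genes were higher in the invasion zone at an adjusted p under 0.05 with no fold minimum. A 1.25-fold difference thus passed only where the replicate was in the model.

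SERPINE2 (ENSG00000135919, chromosome 2, 223975045 to 224039318, reverse strand) had 848 and 772 CPM in the core and 335 and 314 CPM in the invasion zone, from 30363, 11632, 12542 and 3730 counts. Both invasion zone libraries were far below both core libraries, and the spread between replicates, 0.14 in the core and 0.09 in the invasion zone on the log2 scale, was small beside the distance between the zones. Within replicates the log2 difference was -1.34 (exact 95% interval -1.37 to -1.31) and -1.30 (-1.35 to -1.24). The log2 fold change was -1.32 (standard error 0.15, 95% interval -1.69 to -0.95), with an unadjusted p of 0.000184 and an adjusted p of 0.128 in edgeR. Adjusted p was 3.25e-05 with the replicate block and 1.09e-09 in DESeq2. With each library left out in turn the log2 fold change stayed between -1.38 and -1.24. Such a fit leaves 1 library in a zone, so the spread within that zone was not measured.

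SERPINB2 (ENSG00000197632, chromosome 18, 63871692 to 63903888, forward strand) had the fewest counts of the members, with 23.9 and 18.6 CPM in the core and 47.0 and 41.1 CPM in the invasion zone, from 854, 280, 1760 and 488 counts. The invasion zone libraries were both above the core libraries. Within replicates the log2 difference was 0.98 (exact 95% interval 0.86 to 1.10) and 1.14 (0.93 to 1.36). The log2 fold change was 1.05 (standard error 0.19, 95% interval 0.57 to 1.53), with an unadjusted p of 0.00214 and an adjusted p of 0.128 in edgeR, 0.000206 with the replicate block and 0.00123 in DESeq2. With each library left out in turn the log2 fold change ranged from 0.89, without core replicate 2, to 1.26, without core replicate 1. Without invasion zone replicate 1 it was 0.95, and without invasion zone replicate 2 it was 1.14. The values of 0.89 and 0.95 are short of 2-fold, and each such fit leaves 1 library in a zone. SERPINB2 shares 547 of its 2741 exonic bases in GENCODE release 44 with ENSG00000289724 on the same strand, an identifier that the count table does not list.

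Upstream sequences of the serpins that differed by 2-fold are shown because these genes had the largest difference among the members. Each is the 250 bases before a RefSeq transcription start in GRCh38.p14, written 5′ to 3′ on the strand of the gene. The SERPINE2 stretch (chr2:224031479-224031728, reverse strand) precedes a start inside the gene. The SERPINB2 stretch (chr18:63887455-63887704, forward strand) precedes its RefSeq start. Neither overlaps an exon in GENCODE release 44. Capitals mark the CCAAT motif or its complement ATTGG, the E-box motif CACGTG, the TATA motif TATAAA and the AP-1 motif TGANTCA.
SERPINE2: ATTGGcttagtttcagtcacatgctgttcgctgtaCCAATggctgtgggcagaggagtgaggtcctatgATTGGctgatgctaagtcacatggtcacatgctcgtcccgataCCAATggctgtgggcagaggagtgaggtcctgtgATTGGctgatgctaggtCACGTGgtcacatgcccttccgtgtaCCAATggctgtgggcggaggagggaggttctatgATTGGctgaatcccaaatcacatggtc
SERPINB2: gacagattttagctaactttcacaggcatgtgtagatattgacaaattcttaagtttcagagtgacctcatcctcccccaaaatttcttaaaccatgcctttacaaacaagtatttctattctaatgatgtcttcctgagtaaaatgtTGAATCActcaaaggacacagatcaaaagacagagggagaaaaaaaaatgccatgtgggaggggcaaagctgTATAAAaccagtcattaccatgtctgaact

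The SERPINE2 stretch holds 7 CCAAT matches on either strand, in a repeated unit, and 1 CACGTG, whose last base lies 82 bases before the start. SERPINB2 holds 1 TATAAA, the usual form of a TATA box, ending 25 bases before the start, and 1 TGANTCA, the core recognised by AP-1 factors, ending 96 bases before it. Of the 35116 RefSeq stretches of the same length, searched on both strands, 11240 hold CCAAT, 6.34% hold CACGTG, 10.7% TATAAA and 6.57% TGANTCA. A second SERPINE2 start, at 224038640 and nearer the 5′ end of the gene, had none of these 4 motifs upstream. Counts per gene cannot tell which of the SERPINE2 starts these cells use. The GC box GGGCGG, searched on both strands and left uncapitalised, occurs 1 time in the printed SERPINE2 stretch, between 50 and 45 bases before the start, and 2 times before the second SERPINE2 start. The stretch before the PLAUR start holds 1 TGANTCA, ending 180 bases before it, and that before the PLAU start at 73911132 holds none of the 4 but 3 GC boxes, a motif that 42.6% of all stretches hold. The stretch before the other PLAU start, at 73910610, holds 1 CCAAT. These 4 further stretches overlap annotated exons and are not printed. A match describes the letters and does not show that a factor binds there.

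**Figure D2:**
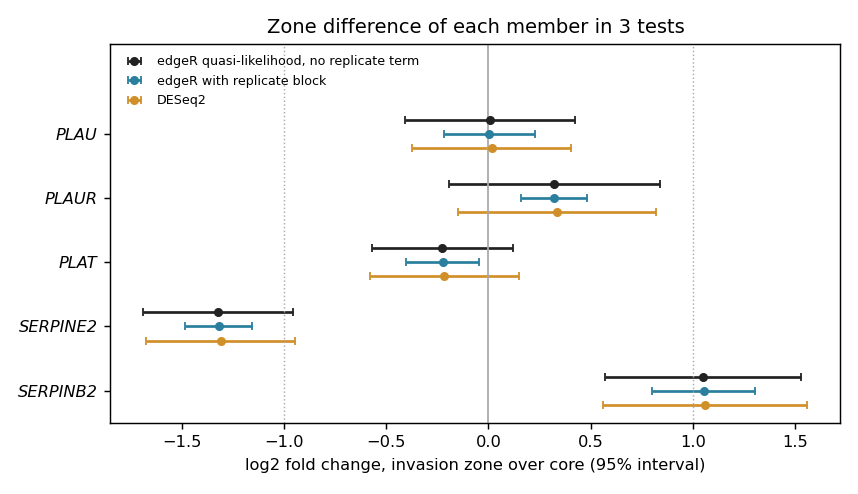
Log2 ratio of invasion zone to core (horizontal axis) for the 5 members in 3 tests, with 95% intervals from 2 libraries per zone. Dotted lines mark a 2-fold change. The estimates nearly coincide between tests, while the intervals for PLAUR and PLAT cross 0 without the replicate block and clear it with the block. The intervals are not adjusted for the number of genes tested. With the block PLAT had an edgeR adjusted p of 0.0507 and did not pass.

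Levels of different genes were compared per kilobase of exon, counting all annotated exons of every isoform once. This length was 2949 bases for PLAU, 4457 for PLAUR, 7770 for PLAT, 8957 for SERPINE2 and 2741 for SERPINB2. The transcripts made by these cells may be shorter, so the order between genes and the rank below depend on this choice. PLAU stood far above the others in all 4 libraries, at 498 and 566 CPM per kb in the core and 573 and 495 in the invasion zone, and ranked 27th of 15395 genes with a known length by the mean over the libraries. In the core, SERPINE2 (94.7 and 86.1 CPM per kb) and PLAUR (70.4 and 90.2) followed and overlapped each other. PLAT (41.1 and 44.9) came next, and SERPINB2 (7.74 ± 1.37, SD, n = 2) was last. In the invasion zone PLAUR (87.6 and 113 CPM per kb) held the second place by itself. PLAT (37.6 and 35.9) and SERPINE2 (37.4 and 35.0) overlapped behind it, and SERPINB2 (16.1 ± 1.52, SD, n = 2) was again last. By this measure alone, SERPINE2 moved from a level like that of PLAUR to a level like that of PLAT.

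The ratio of 2 members within a library does not depend on how libraries are scaled. The PLAU to SERPINE2 ratio of counts was 1.73 and 2.16 in the core and 5.05 and 4.65 in the invasion zone. This is a change of 1.32 on the log2 scale, 1.54 within replicate 1 and 1.10 within replicate 2. The PLAT to SERPINE2 ratio went from 0.377 and 0.452 in the core to 0.873 and 0.888 in the invasion zone, so both activators stood higher relative to protease nexin-1 transcript there. Against the other inhibitor the order was opposite: the PLAU to SERPINB2 ratio was 61.5 and 89.8 in the core and 36.0 and 35.5 in the invasion zone. The widest shift lay between the inhibitors themselves, with 35.6 and 41.5 SERPINE2 counts per SERPINB2 count in the core and 7.13 and 7.64 in the invasion zone, a 5.21-fold change. This pair joins the member that fell most with the one that rose most, so its shift follows from theirs. The PLAU to SERPINE2 change likewise repeats that of SERPINE2, because PLAU hardly differed between the zones. The PLAU to PLAT ratio changed little, from 4.59 and 4.79 to 5.78 and 5.23. The PLAU to PLAUR ratio overlapped between the zones, with 4.68 and 4.15 in the core and 4.33 and 2.89 in the invasion zone. With 2 libraries against 2, an exact two-sided permutation test cannot give a p under 0.333, and no test was run on these ratios.

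**Figure D3:**
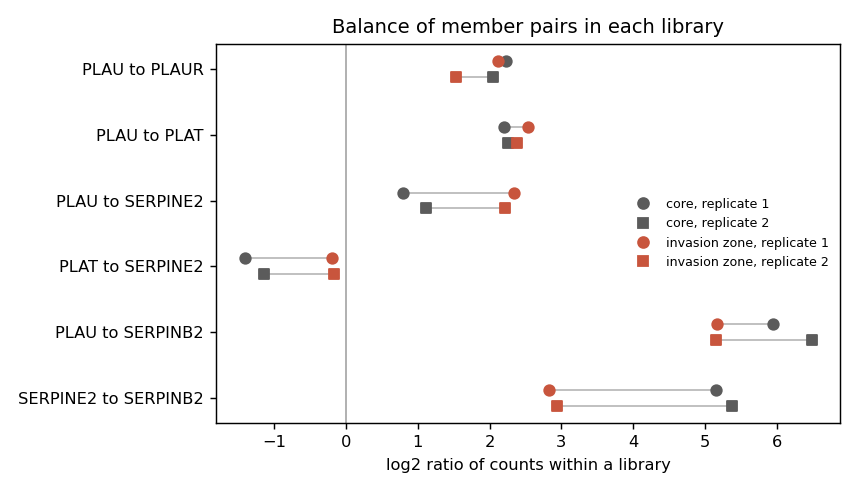
Log2 ratio of the counts of 2 members in the same library (horizontal axis), with the core in grey, the invasion zone in red, circles for replicate 1 and squares for replicate 2. The SERPINE2 to SERPINB2 ratio moved most, from 5.15 and 5.38 in the core to 2.83 and 2.93 in the invasion zone. The PLAU to PLAUR ratio overlapped between the zones. The pairs share members and are not independent, and the share of other gene pairs without overlap was not computed.

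The surroundings of the members were described with lists of genes by role. In the lists below, no gene was called by the edgeR test without a replicate term, so counts refer to the test with the replicate block, whose background was given above. The median log2 fold change over all genes tested was -0.01. Among 9 further inhibitors of plasminogen activators and plasmin, 4 were tested, 0 were higher and 1 was lower, with a median log2 fold change of -0.60. The lower gene was SERPINI1, which encodes neuroserpin, an inhibitor of tissue-type activator, with 9.75 and 6.70 CPM in the core and 5.04 and 2.44 CPM in the invasion zone (edgeR adjusted p = 0.00497 with the block and 0.194 without, DESeq2 adjusted p = 0.107). TFPI2, a Kunitz-type inhibitor of plasmin, had 11.4 and 11.5 CPM in the core and 14.6 and 12.1 CPM in the invasion zone and did not pass (adjusted p = 0.289 with the block). SPINT2, another Kunitz-type inhibitor, had 1.20 to 1.65 CPM over the 4 libraries.

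PLG, the gene of plasminogen itself, had 0 counts in all 4 libraries, which at 3 counts allows up to 0.0825 and 0.200 CPM in the core and 0.0798 and 0.254 CPM in the invasion zone. Of the 8 genes for plasminogen and its binding proteins, 6 were tested, 0 were called in either direction at 2-fold, and the median was 0.11. ENO1, a glycolytic enzyme that also binds plasminogen at the cell surface, had 16379 and 13710 CPM in the core and 10531 and 7984 CPM in the invasion zone, giving a log2 fold change of -0.70. ANXA2, which anchors plasminogen and tissue-type activator at the membrane, had 578 and 966 CPM in the core and 1036 and 1538 CPM in the invasion zone, giving a log2 fold change of 0.74. Both passed the adjusted threshold with the block (adjusted p = 0.000236 and 0.000169), under 2-fold. So did the other tested genes of this list, PLGRKT, HMGB1, KRT8 and S100A10 (adjusted p = 0.000335, 0.00272, 0.00842 and 0.0143). Passing without a fold minimum was common in that fit, where 7322 of 15529 genes had an unadjusted p under 0.05.

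Among the 14 uPAR partners and endocytic clearance receptors, 12 were tested, 0 were higher and 4 were lower. The median log2 fold change of these 12 was -0.59. The invasion zone pair lay wholly below the core pair for 10 of them, against 30.3% of all genes tested. That held too for 7 of 13 substrates, 6 of 11 other serpins and 4 of 7 other serine proteases. It also held for 3 of 4 further inhibitors, 3 of 5 uPAR-fold proteins and 2 of 6 plasminogen-related genes. Wholly above the core pair were 0 to 2 genes of each list, against 28.1% of all genes. The lists were chosen with earlier results of these data known, so these counts are description and not a test. The 4 lower genes of the receptor list were 3 endocytic receptors and 1 integrin. LRP1 and VLDLR are receptors of the LDL receptor family that take up complexes of urokinase with its inhibitors. LRP1 had 700 and 451 CPM in the core and 275 and 86.9 CPM in the invasion zone, giving a log2 fold change of -1.67 (standard error 0.56). VLDLR had 29.3 and 29.1 CPM in the core and 10.1 and 7.66 CPM in the invasion zone, giving a log2 fold change of -1.70 (standard error 0.21). MRC2, the collagen receptor that associates with uPAR, had 696 and 455 CPM in the core and 307 and 137 CPM in the invasion zone. ITGB3, the beta chain of a vitronectin-binding integrin, had 7.94 and 10.7 CPM in the core and 1.01 and 0.252 CPM in the invasion zone, the last from 3 counts. These 4 genes had adjusted p from 8.82e-05 to 0.000296 with the block, and DESeq2 called all 4. ITGB1, the integrin beta 1 chain, had 1121 and 1142 CPM in the core and 1214 and 1209 CPM in the invasion zone (adjusted p = 0.709 without the block and 0.304 with it). ITGA3, an alpha chain that pairs with it and binds uPAR, had 726 and 612 CPM in the core and 519 and 360 CPM in the invasion zone, giving a log2 fold change of -0.61 under the fold minimum. VTN, the gene of the uPAR ligand vitronectin, was too low to test.

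Of 14 substrates of plasmin and plasminogen activators, 13 were tested, 0 were higher and 5 were lower, with a median log2 fold change of -0.59. The 5 were LTBP1, VEGFA, FN1, HGF and MMP1, of which DESeq2 called the first 3, with an adjusted p of 0.192 for MMP1 and none given for HGF. The study named FN1, VEGFA and the integrin gene ITGB3 from these same libraries, and also COL1A1 and PDGFRB of the fibroblast list. The direction of these genes is thus not independent evidence. LTBP1, which tethers latent TGF-beta to the matrix, had 25.2 and 16.5 CPM in the core and 2.46 and 1.43 CPM in the invasion zone, giving a log2 fold change of -3.36 (standard error 0.37). FN1, encoding fibronectin, and VEGFA, an angiogenic growth factor, had log2 fold changes of -1.34 and -2.01. HGF, a growth factor activated by urokinase among other proteases, and MMP1, the interstitial collagenase, were low, with 1.68 and 2.12 CPM (HGF) and 3.05 and 1.99 CPM (MMP1) in the core. In the invasion zone HGF had 24 counts and 1 count, and MMP1 had 1.07 and 1.09 CPM. TGFB1 itself had 189 and 129 CPM in the core and 165 and 114 CPM in the invasion zone, with overlap between the zones. F2R, the thrombin receptor PAR1, had a log2 fold change of -0.59, under 2-fold, and passed the adjusted threshold with the block (adjusted p = 0.00158). In that fit 7322 of 15529 genes had an unadjusted p under 0.05.

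**Figure D4:**
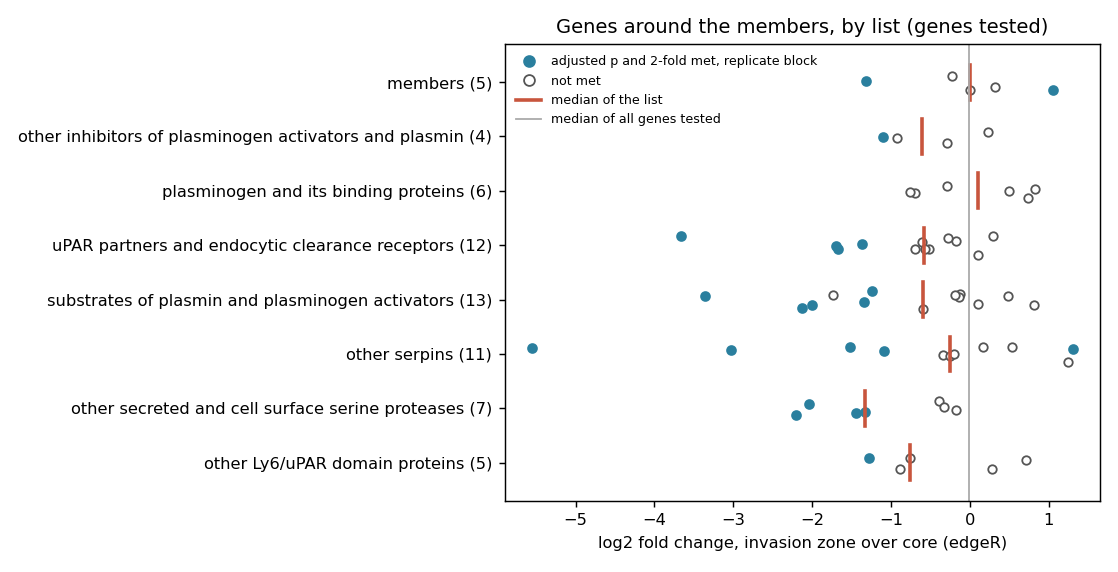
Log2 ratio of invasion zone to core (horizontal axis, edgeR without a replicate term) for each tested gene of the member list and 7 lists around it, with the number tested in brackets. Filled points meet an adjusted p under 0.05 and 2-fold with the replicate block, red bars are list medians, the grey line is the median of all genes, and the point near -5.56 is SERPINB4, whose fitted value rests on 2 counts in the invasion zone. Filled points lie on the lower side, except SERPINB2 among the members and SERPINB7 among the other serpins.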

How the data were processed

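Bulk RNAseq libraries of the core and the invasion zone (2 each) were analysed. The deposited values are raw counts: the authors filtered out ribosomal RNA with Bowtie, mapped to hg38 with STAR and summed unique alignments by gene with HTSeq-count. Not given in the sources used here: versions, annotation release and strand setting. Columns were assigned by the zone and replicate in their names, and 2 repeated rows without counts were left out of 56306.

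The edgeR filter (10 counts, scaled to the median library, in 2 libraries, and 15 in all) kept 15529 genes. Zones were compared in R 4.3.3 with edgeR 4.0.16 (TMM, glmQLFit, glmQLFTest, zone as the only term) and Benjamini-Hochberg adjustment. Standard errors are the log2 fold change over the square root of F. DESeq2 1.42.0, limma 3.58.1 voom, other scalings and filters, thinning, a replicate block and each library left out were alternatives. The fitting code was tested on simulated data. The core and its corresponding invasion zone were punched from one spheroid, though no source says that a replicate number marks a spheroid. Deviations from the zone mean correlated between libraries of one number (r = 0.58 across 15529 genes, which are not independent), and depth differed between the numbers, so the blocked and within-replicate values stand beside the others. Libraries of a zone were not duplicates (chi-square per degree of freedom 38.5 in the core and 36.3 in the invasion zone). Intervals within a replicate are exact binomial and cover counting error only.

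Positions and exon lengths were taken from GENCODE release 44 (GRCh38; 98.1% of identifiers matched) and upstream sequences from RefSeq on GRCh38.p14, which gave a stretch for 4 of the 5 members. Members and lists were chosen with earlier results of these data known. Named genes are the members, the 3 genes nearest to each in pattern, and, per list, up to 6 genes called in either edgeR fit plus the 2 most abundant others. Another gene of the inhibitor list, the tenth, is not reported here and is not in its counts. Figures were drawn with matplotlib 3.10.9.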

Additional observations from a re-analysis of the deposited data

How the results depend on the processing

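The 16 alternatives were run for the counts of genes called, 14 of them for each member and 13 for the pathway list genes, leaving out some that change only the threshold. The 6 ratios do not depend on scaling or test and were recomputed after thinning and with each library left out. The direction of PLAT, PLAUR, SERPINE2 and SERPINB2 held in each of these, and that of PLAU did not: its log2 fold change was -0.026 with upper-quartile scaling, -0.018 with at least 10 counts in every library, -0.0053 in limma voom and -0.0041 after thinning to the smallest library, and it ranged from -0.11 to 0.11 with each library left out. For the other members that range was from 0.12 to 0.52 for PLAUR, -0.28 to -0.16 for PLAT, -1.38 to -1.24 for SERPINE2 and 0.89 to 1.26 for SERPINB2. The lone library of a zone was then assumed to vary like the other zone.

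The replicate block, which pairs same-numbered libraries, gave 530 higher and 1097 lower genes where the test without it gave 0 and 0. It gave log2 fold changes of -1.32 for SERPINE2, 1.05 for SERPINB2 and 0.32 for PLAUR, all past the adjusted threshold. Limma voom with the replicate block gave 575 and 1088 genes, -1.32, 1.03 and 0.32 for the same members, and also passed PLAT at -0.22. DESeq2 called 353 and 534 genes with adjusted p, and 444 and 840 with unadjusted p, with -1.31 for SERPINE2 and 1.06 for SERPINB2. With no filter beyond 1 count, edgeR called 427 and 846 genes, with -1.32 and 1.05. Unadjusted p in edgeR gave 454 and 909 genes, and SERPINE2 (-1.32) and SERPINB2 (1.05) passed. The number called stayed at 0 with RLE scaling, upper-quartile scaling, the stricter count filter, thinning, limma voom and no fold minimum. With each library left out there were 13 to 632 higher genes and 125 to 1137 lower genes, the 13 and 125 without core replicate 1. Among the pathway list genes, 1 higher and 19 lower were called with the block, in edgeR as in limma voom, 1 and 11 in DESeq2, 1 and 17 without the filter, and 0 to 3 higher and 7 to 17 lower with each library left out. The cause of these changes was not tested.

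The ratio differences kept their sign when libraries were left out, from 1.16 to 1.49 for PLAU to SERPINE2, 0.96 to 1.22 for PLAT to SERPINE2, -1.33 to -0.78 for PLAU to SERPINB2, -2.49 to -2.27 for SERPINE2 to SERPINB2, 0.16 to 0.30 for PLAU to PLAT and -0.61 to -0.026 for PLAU to PLAUR.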

Other observations

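SERPINB2 lies in a run of 10 SERPINB genes on chromosome 18 between 63476958 and 64019779 of GRCh38, of which 5 were tested and 4 had 0 counts in every library. Its neighbour SERPINB7, a serpin best known from the epidermis, had 35.9 and 76.1 CPM in the core against 110 and 167 CPM in the invasion zone, giving a log2 fold change of 1.31 (edgeR adjusted p = 0.155, 0.000102 with the replicate block, 0.00919 in DESeq2). SERPINB8, on the other side, had 62.3 and 56.4 CPM in the core against 83.3 and 89.0 CPM in the invasion zone, giving a log2 fold change of 0.54. SERPINB3 and SERPINB4, near-identical copies whose reads the counting could have dropped or split, had 25 and 7 counts and 115 and 12 counts in the core, against 1 and 2 counts and 2 and 0 counts in the invasion zone. SERPINB10, next to SERPINB2, had 1 count in all.

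Among the 21 other serpins, 11 were tested, 1 was higher and 4 were lower with the replicate block (1 and 1 in DESeq2), with a median log2 fold change of -0.25. SERPINB1, an inhibitor of neutrophil proteases encoded on chromosome 6, had 104 and 69.2 CPM in the core against 50.5 and 30.2 CPM in the invasion zone. SERPINA1, the gene of alpha-1-antitrypsin, was low, with 1.51 and 1.39 CPM in the core against 0.667 and 0.252 CPM in the invasion zone. SERPINB6 and SERPINH1, those with the highest mean CPM that were not called, had log2 fold changes of -0.34 and -0.20.

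Other secreted and cell surface serine proteases had the lowest median of the lists, -1.33, with 7 of 12 tested, 0 higher and 4 lower with the block. DESeq2 called 3 of these 4, with an adjusted p of 0.0704 for C1R. C1R and C1S, the proteases that start the classical complement cascade, had 250 and 146 CPM and 231 and 156 CPM in the core. In the invasion zone C1R had 66.1 and 18.7 CPM and C1S had 68.2 and 25.0 CPM. HTRA1, a secreted protease of matrix proteins, had 80.3 and 67.3 CPM in the core against 29.1 and 25.0 CPM in the invasion zone. FAP, a membrane protease of activated fibroblasts that some melanoma lines also express, had 25.7 ± 3.10 CPM in the core against 10.2 ± 1.11 CPM in the invasion zone (SD, n = 2). The fibroblast list, nearly all COL1A1, was lower in the invasion zone as well, with DCN and LUM at 0 in every library. PRSS23 and FURIN were not called, with log2 fold changes of -0.18 and -0.40. Of 10 proteins with the same fold as uPAR, 5 were tested and only LYPD3 was called with the block, lower in the invasion zone (5.06 ± 0.719 CPM in the core against 2.10 ± 0.364 CPM in the invasion zone, SD, n = 2), with a DESeq2 adjusted p of 0.0506 and a list median of -0.75. LY6E and CD59, those with the highest mean CPM, had log2 fold changes of -0.88 and 0.28.

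By Euclidean distance of centred log2 CPM over the 4 libraries, the genes nearest to SERPINE2 were LDHAP7, SOX4 and FAP (0.08, 0.10 and 0.12), and those nearest to SERPINB2 were EVI2A, HSP90AB3P and EPGN (0.14, 0.18 and 0.19), where the median distance of all genes was 1.37 and 1.17. Nearest to PLAUR were UHRF2, SPOUT1 and CCP110 (0.02, 0.03 and 0.03), to PLAT PCGF3, GPBP1 and CHD9 (0.01, 0.02 and 0.02), and to PLAU CCNT2-AS1 and CCDC17 (0.02 and 0.04), with another known only by a clone name. With 4 libraries and 15529 genes, small distances are common, and the 3 genes nearest to PLAU were all under 2.6 CPM.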
